A study of Mus musculus with 23 samples.

Results

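The Id genes encode inhibitors of DNA binding: short helix-loop-helix proteins that pair with other helix-loop-helix transcription factors and, because they lack the basic stretch that contacts DNA, hold their partners off E-box sites. Their main partners are the E proteins, and in muscle cells the myogenic factors MyoD and myogenin need E proteins to switch on differentiation. Id1 and Id3 are classic targets of bone morphogenetic protein (BMP) signalling, in which ligands bind paired receptors and activate Smad transcription factors, and both are also known from endothelial cells. Described here are Id1, Id2 and Id3, 3 of 12393 genes with a single symbol on the array, read by every probe set that carries 1 of these symbols. Id1 has 1 probe set (1425895_a_at), Id3 has 1 (1416630_at) and Id2 has 3 (1422537_a_at, 1453596_at and 1435176_a_at). The 3 genes were chosen by name after low flight values of Id1 and Id3 had been seen, so the flight values of all 3 are given as a description without a test. Whether their calf values also played a part in the choice is not known, so the calf tests are not independent of it either.

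The muscles came from 77-day-old female mice of the C57BL/6J strain, and each of 23 samples was hybridised to its own Affymetrix array. In the flight experiment, gastrocnemius was taken in 4 samples after 11 days and 19 hours in space (spaceflight) and in 4 after the same time in an animal enclosure module kept on Earth (ground AEM). In the calf experiment there were 5 calf muscle samples of untreated control mice, 5 taken after the hindlimbs had been suspended for 12 days (suspension), and 5 taken 3.5 hours into reloading that followed such a suspension (reloaded). The labels name no transgene or drug in any group. Groups follow titles and source names. In the description field the texts of both flight groups are swapped, and if that field were right every flight sign below would turn, and with it the comparison of flight with suspension.

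All values are deposited log2 signals, so a difference of 1 is a 2-fold change. The 9 markers of muscle fibres, among them Acta1 and Ckm, lay at 11.97 or above on each of the 23 arrays. Array range (75th minus 25th percentile) spanned 2.75 to 2.91 in the flight experiment and 2.21 to 2.46 in the calf experiment, and levels are therefore compared only inside each. Suspension replicates 8 and 9, at 2.21 and 2.30, had the narrowest ranges of the calf arrays, and replicate 8 had the lowest median correlation with its group (0.985). In whole muscle, fewer cells of a type and less RNA per cell cannot be told apart.

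The RefSeq promoter table (GRCm38.p6) was matched by symbol for 2 of the 3 members, Id2 and Id3, and the 250 bases before the start of each are shown because Id3 is a member that moved and Id2 is the member near background. Id3 lies at chr4:136143572-136143821 on the plus strand and Id2 at chr12:25096093-25096342 on the minus strand. Capitals mark matches, on either strand, to CANNTG (E-box), GGCGCC (GC-rich Smad element), GTCT (Smad box), TGACG (cAMP response element core) and CACCC (KLF/Sp box).
Id3: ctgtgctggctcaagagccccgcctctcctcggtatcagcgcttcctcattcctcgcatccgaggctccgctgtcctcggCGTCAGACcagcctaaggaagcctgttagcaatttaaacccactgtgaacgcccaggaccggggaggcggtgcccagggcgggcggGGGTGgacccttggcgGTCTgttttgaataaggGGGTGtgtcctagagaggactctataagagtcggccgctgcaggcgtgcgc
Id2: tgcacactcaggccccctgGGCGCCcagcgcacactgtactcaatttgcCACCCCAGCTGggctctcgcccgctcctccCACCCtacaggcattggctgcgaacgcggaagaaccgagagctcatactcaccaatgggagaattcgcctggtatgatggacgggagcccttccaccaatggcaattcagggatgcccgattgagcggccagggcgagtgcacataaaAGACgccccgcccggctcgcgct

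Both windows were GC-rich, at 62.8% each. The Id3 window held 2 Smad boxes, 1 cAMP response element core that overlaps the first of them, and 2 KLF/Sp boxes. The Id2 window held 1 Smad box, 1 GC-rich Smad element, 1 E-box directly after the first of 2 KLF/Sp boxes, and no cAMP response element core. Of 32851 promoter windows of the same length, 82.9% held a Smad box, 66.2% an E-box, 52% a KLF/Sp box, 17.8% the cAMP response element core and 9.59% the GC-rich Smad element. These are letter matches only.

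In flight, Id1 and Id3 were both lower and Id2 was not measurably different. Id1 read 8.16, 8.09, 8.46 and 8.27 in ground AEM replicates 1 to 4, and 7.10, 7.30, 7.28 and 7.01 in spaceflight replicates 8 to 11. The groups did not overlap, since the highest spaceflight array (7.30) lay below the lowest ground array (8.09). The means were 8.24 ± 0.16 in ground AEM and 7.17 ± 0.14 in spaceflight (SD, n = 4 each), a difference of -1.07 ± 0.10 (SE), so ground AEM was 2.10-fold higher. It stood in place 6 from the lowest of 9133 genes that passed a filter on low signal. Id3 read 7.70, 7.50, 7.82 and 7.85 on the ground and 7.04, 6.86, 7.30 and 7.04 in flight. Its groups did not overlap either, with means of 7.72 ± 0.16 and 7.06 ± 0.18 and a difference of -0.65 ± 0.10, place 35 from the lowest of the same 9133 genes. Of all tested genes, 5.64% were called in flight at an adjusted p under 0.05 and 2.46% were called lower, and 6% had spaceflight arrays wholly below the ground arrays. Because this contrast chose the members, nothing is read from their place in it.

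**Figure D1:**
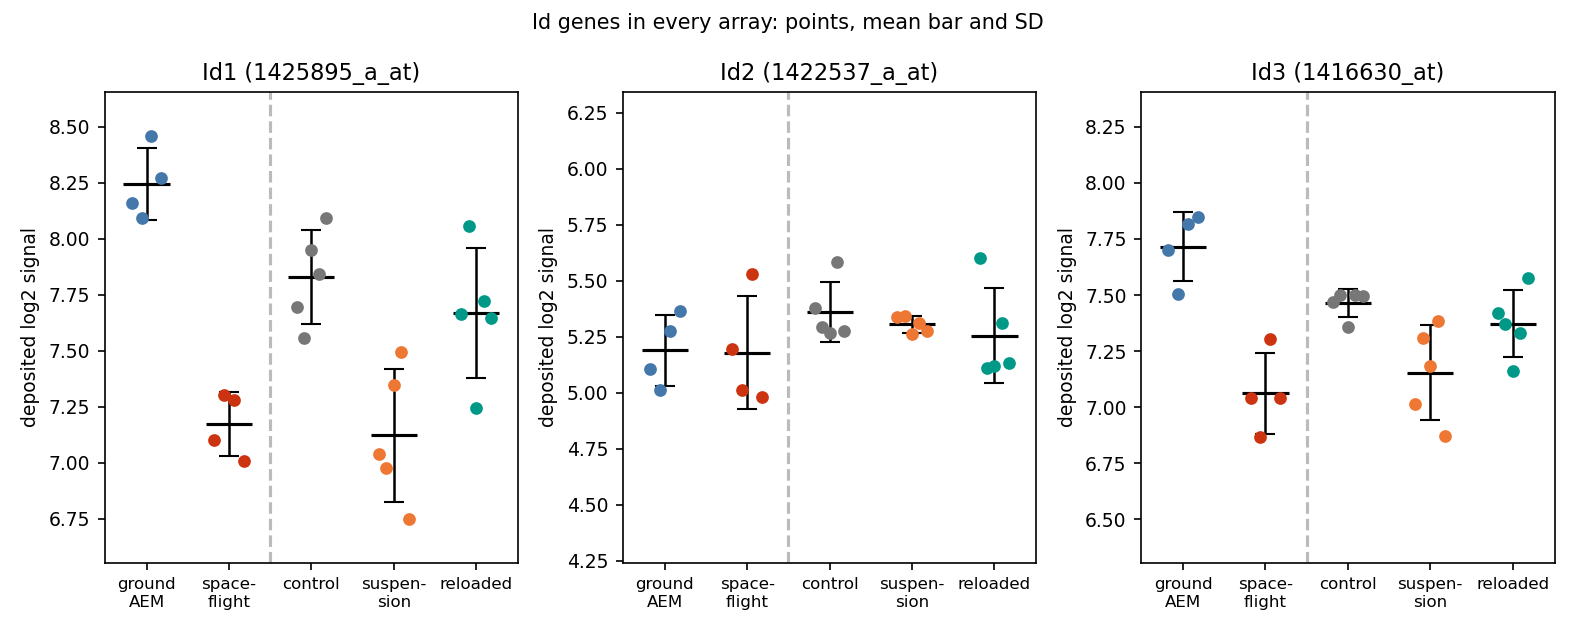
Deposited log2 signal of Id1, Id2 and Id3 (y axis, a window of the same height in each panel) on every array by group (x axis); points are arrays, bars the mean and SD, and the dashed line parts the flight from the calf experiment. Id1 and Id3 are lower in spaceflight than in ground AEM without overlap, Id1 is also lower in suspension, and Id2 lies between 4.98 and 5.60 in all groups.

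Id2, which besides E proteins is known to bind retinoblastoma pocket proteins, gave signals below the filter value of 5.83 on all 23 arrays with each of its 3 probe sets. It was therefore left out of the main fit, and its differences come from the fit without the filter. On its highest probe set the means were 5.19 ± 0.16 in ground AEM and 5.18 ± 0.25 in spaceflight, 5.36 ± 0.13 in controls, 5.31 ± 0.04 in suspension and 5.25 ± 0.21 in reloaded muscle. The flight difference was -0.01, with a 95% interval of -0.27 to 0.25. A probe set near background can understate a change. In the calf experiment Id2 differed by -0.05 (interval -0.24 to 0.14, limma adjusted p = 0.916) in suspension against control and by -0.05 (-0.24 to 0.14, adjusted p = 0.875) in reloaded against suspension. The other 2 probe sets, with means between 3.58 and 4.17 in every group, differed by 0.07 and -0.06 in flight and by 0.06 and 0.07 in suspension.

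Id1 fell after 12 days of suspension. Control arrays 1, 2, 19, 21 and 22 read 7.70, 7.56, 7.95, 7.84 and 8.09, and suspension arrays 8, 9, 11, 25 and 30 read 7.04, 6.98, 7.35, 7.50 and 6.75. Each suspension array lay below each control array, although suspension replicate 25 (7.50) came close to control replicate 2 (7.56). The means were 7.83 ± 0.21 and 7.12 ± 0.30 (SD, n = 5 each). Id1 fell by 0.71 ± 0.14 (SE) on the log2 scale, limma adjusted p = 0.0294, and 5 of 5 suspension arrays were below the control mean. In this comparison 0.372% of all tested genes were called, 0.241% lower, and 1.34% had suspension arrays wholly below the controls. The call is close to the threshold. It ended when control replicate 19, 21 or 22 or suspension replicate 8, 9 or 30 was left out alone (adjusted p up to 0.0966), and without suspension replicates 8 and 9 together the difference was -0.63 with adjusted p = 0.203. The difference itself stayed between -0.80 and -0.61 whichever single array was left out.

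Id3 had the same sign in suspension but did not pass. Its control arrays read 7.47, 7.50, 7.36, 7.50 and 7.50 in the order above, and its suspension arrays 7.01, 7.31, 7.19, 7.39 and 6.87. The groups overlapped through suspension replicate 25 and control replicate 19 alone, and 5 of 5 suspension arrays lay below the control mean. The difference was -0.31 ± 0.09 (95% interval -0.51 to -0.12, limma adjusted p = 0.227), and -0.32 (adjusted p = 0.340) without suspension replicates 8 and 9. Suspension replicate 30 was the lowest and replicate 25 the highest of its group for both Id1 and Id3.

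After 3.5 hours of reloading the Id1 mean was between those of suspension and control, nearer to control. Reloaded arrays 14, 15, 16, 18 and 33 read 7.67, 8.06, 7.24, 7.72 and 7.65 for Id1, a mean of 7.67 ± 0.29 (SD, n = 5). All 5 were above the suspension mean, but replicate 16 lay within the suspension range, below replicates 11 and 25. The difference from suspension was 0.54 ± 0.14 (95% interval 0.25 to 0.84) and did not pass (limma adjusted p = 0.130), in a comparison where 0.58% of all tested genes were called, 0.547% higher. It passed without reloaded replicate 16 (0.65, adjusted p = 0.0258) or without suspension replicate 25 (0.64, adjusted p = 0.0338), and was 0.47 (adjusted p = 0.604) without suspension replicates 8 and 9. Against control, reloaded Id1 differed by -0.16 (interval -0.46 to 0.14, adjusted p = 0.896), where 0.318% of all tested genes were called.

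Id3 read 7.42, 7.37, 7.16, 7.33 and 7.58 in the reloaded arrays in the same order. Its mean of 7.37 ± 0.15 differed from suspension by 0.22 (interval 0.02 to 0.41, limma adjusted p = 0.479) and from control by -0.09 (-0.29 to 0.10, adjusted p = 0.920). Control, reloaded and suspension thus ranked in that order for both genes. For Id1 the ends of the order passed in the main fit, a call that ended in 9 other fits, while neither neighbouring pair passed in the main fit. For Id3 no pair passed. The suspension and reloading comparisons share the suspension arrays and are not independent.

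**Figure D2:**
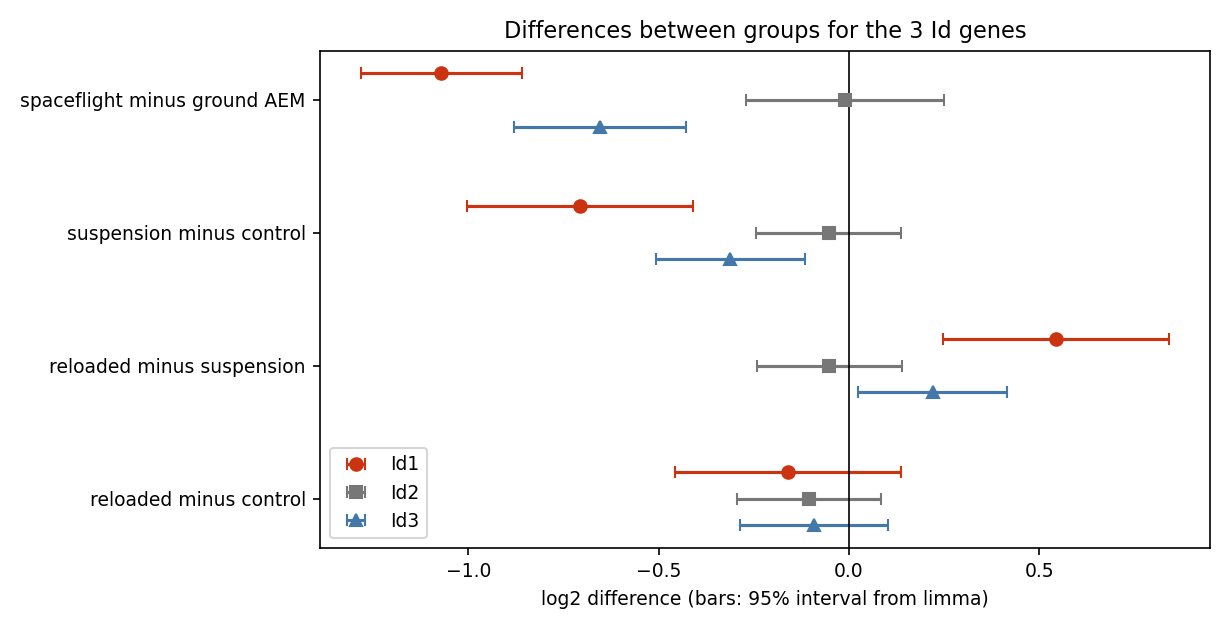
Log2 difference (x axis) with its 95% interval from limma for Id1 (circles), Id2 (squares) and Id3 (triangles) in 4 comparisons (y axis). Id1 runs from -1.07 in flight and -0.71 in suspension to 0.54 on reloading, Id3 has the same signs with smaller sizes, and Id2 stays within 0.11 of 0.

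Set side by side, the flight difference exceeded the suspension difference in size for both genes, -1.07 against -0.71 for Id1 and -0.65 against -0.31 for Id3. In a fit over all 23 arrays the flight effect minus the suspension effect was -0.37 for Id1 (95% interval -0.77 to 0.04) and -0.34 for Id3 (-0.64 to -0.05). For Id2 it was 0.04 (-0.27 to 0.35). With the flight groups exchanged, as the description field has them, it would be 1.78 for Id1 (1.37 to 2.18), 0.97 for Id3 (0.67 to 1.26) and 0.06 for Id2 (-0.25 to 0.38), a value added after the data were seen. No test is attached, since the flight effect was known when the genes were chosen. Such a choice can enlarge the flight effect of Id1 and Id3 beside that of suspension. The intervals are therefore not read as tests, also where they leave out 0. The experiments also differ in tissue label, housing and array range.

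Id4, the remaining member of the family, lay close to the filter value but was tested, and it was called in no comparison. Its highest probe set averaged 5.86 ± 0.06 in ground AEM and 5.67 ± 0.12 in spaceflight, a difference of -0.19 ± 0.08 (limma adjusted p = 0.219). In suspension it differed by -0.11 (adjusted p = 0.807) and on reloading by -0.01 (adjusted p = 0.991). Of its other 2 probe sets, with values between 3.74 and 4.70 on all arrays, 1423259_at differed by -0.31 in flight, with arrays that did not overlap, and 1450928_at by -0.01.

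Of all tested genes 5.64% were called in flight, and the counts of BMP pathway genes below are to be read beside that share, with 1 call in each of the ligand and receptor lists. Of 12 tested ligands and antagonists, 0 rose and 1 fell: Tgfb1, a ligand of the related TGF-beta branch, from 6.36 ± 0.14 to 5.93 ± 0.17 (log2 difference -0.43 ± 0.10, limma adjusted p = 0.0247). Bmp4, a ligand that induces Id genes, differed by 0.24 (adjusted p = 0.312). The list's median was 0.02 beside -0.01 for all tested genes. Of 9 receptors, 0 rose and 1 fell. This was the type II receptor Bmpr2, from 6.63 ± 0.17 to 6.13 ± 0.15 (-0.51 ± 0.10, adjusted p = 0.0113), and the receptor median was -0.17. Bmpr2 kept its call whichever array was left out, whereas that of Tgfb1 ended without ground AEM replicate 3 or spaceflight replicate 8 or 9.

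Among 7 tested Smads, 1 rose and 1 fell, and both carry BMP signals. Smad5 fell from 6.76 ± 0.12 to 6.17 ± 0.29 (-0.59 ± 0.13, limma adjusted p = 0.0169), and its other probe set, at a lower level, differed by -0.24. Smad1 rose from 6.66 ± 0.30 to 7.15 ± 0.07 (0.49 ± 0.12, adjusted p = 0.0402), but its other probe set differed by -0.01. The Smad1 call ended in 7 of 8 fits with 1 array left out, all but that without ground AEM replicate 1, and with the mean of its probe sets. The inhibitory Smads, which BMP signalling induces to limit itself, did not pass: Smad6 differed by -0.21 (adjusted p = 0.287) and Smad7 by -0.07 (adjusted p = 0.677). Of 6 tested BMP-Smad targets other than Id genes, Hes1 rose (0.55 ± 0.13, adjusted p = 0.0259) and Hey1 fell (-0.40 ± 0.11, adjusted p = 0.0495), with a list median of -0.07. Both are Notch-responsive repressors as well. The Hey1 call ended without the filter on low signal, with quantile normalization, with array weights and in 6 of 8 fits with 1 array left out, without any 1 of the 4 ground AEM arrays or spaceflight replicate 9 or 11, and that of Hes1 ended without ground AEM replicate 1 or 3 or spaceflight replicate 8.

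**Figure D3:**
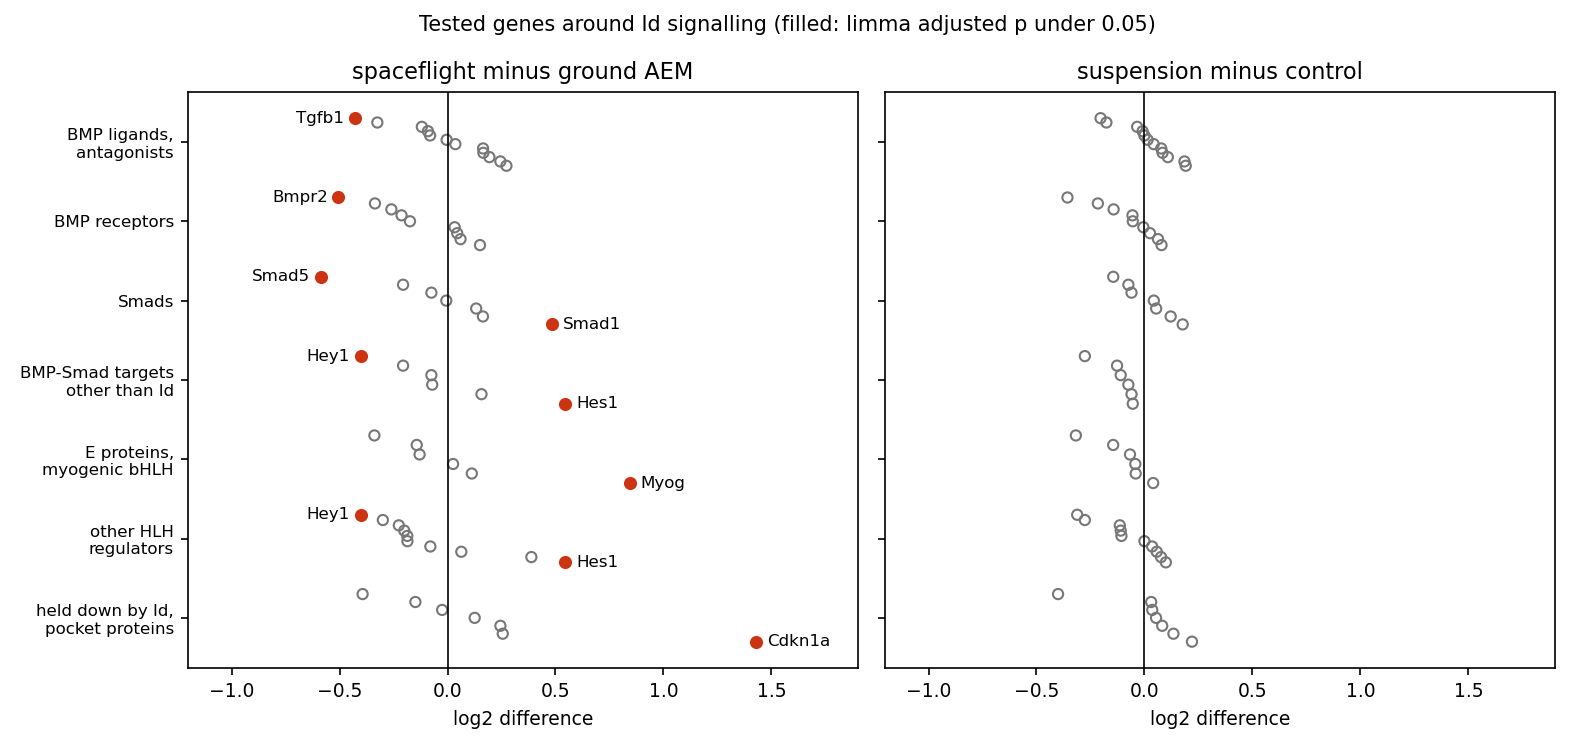
Log2 difference (x axis) of each tested gene in 7 lists of genes around Id proteins (y axis) in spaceflight against ground AEM (left) and in suspension against control (right); filled points passed limma's adjusted p under 0.05. In flight 8 genes passed, led by Cdkn1a at 1.43, and Hes1 and Hey1 are drawn in 2 lists; in suspension 0 passed.

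Counts in this paragraph are likewise to be read beside the 5.64% of all tested genes called in flight. Of 6 tested E proteins and myogenic factors, the partners of the Id proteins, 1 rose and 0 fell in flight, with a median of -0.05. The 3 E proteins Tcf3 (0.11), Tcf4 (0.03) and Tcf12 (-0.13) did not pass in flight, with limma adjusted p of 0.452, 0.897 and 0.494, although a dim probe set of Tcf3 differed by -0.30. Of the myogenic factors, myogenin, Myog, rose from 7.72 ± 0.39 to 8.56 ± 0.38 (0.84 ± 0.20, adjusted p = 0.0253), although its arrays overlapped between the groups. Myod1 differed by -0.34 (adjusted p = 0.220). The Myog call ended without ground AEM replicate 1, 3 or 4 or spaceflight replicate 8 or 9, and under eBayes with trend and robust estimation. Of 10 other tested helix-loop-helix regulators, Hes1 and Hey1 again were the called ones. That list's median was -0.19 beside -0.01 for all tested genes.

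The next count is also to be read beside the 5.64% of all tested genes called in flight. Of 7 tested genes that Id proteins are known to hold down or that encode pocket proteins, 1 rose in flight and 0 fell. This was the cell cycle inhibitor Cdkn1a, from 9.08 ± 0.26 to 10.51 ± 0.18 (1.43 ± 0.12, limma adjusted p = 9.1e-05), with a second probe set at 1.22. In suspension, where 0.372% of all tested genes were called, 0 of the 7 genes passed, and Cdkn1a differed by 0.04 (adjusted p = 0.973). The list's median was 0.13 in flight and 0.05 in suspension. The list was chosen with earlier results of these data known, so the Cdkn1a call may not be independent of them.

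Over all tested genes, 0.372% were called in suspension against control, 0.58% in reloaded against suspension and 0.318% in reloaded against control. The calf counts of these 7 lists are to be read beside those shares. In suspension against control 0 of the lists' tested genes passed: Bmpr2 differed by -0.36 (limma adjusted p = 0.317), Smad6 by -0.06, Myog by -0.04 and Tcf12 by -0.14. On reloading against suspension 2 genes passed. Myf6, the myogenic factor of mature fibres, rose from 9.44 ± 0.35 to 10.06 ± 0.26 (0.62 ± 0.14, limma adjusted p = 0.0441). Bhlhe40, a transcriptional repressor of the clock, fell from 10.01 ± 0.05 to 9.49 ± 0.26 (-0.52 ± 0.11, limma adjusted p = 0.0183). Without suspension replicates 8 and 9 neither passed. The Myf6 call also ended without reloaded replicate 14, 15, 18 or 33 or suspension replicate 8, 9 or 30 alone, without the filter, with the mean of probe sets and with trend and robust estimation. The Bhlhe40 call ended in 1 fit of all 23 arrays and without reloaded replicate 14, 15 or 18 or suspension replicate 30. In reloaded against control 0 of these genes passed.

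Genes with the most similar patterns were sought among all tested genes by Pearson's r with each member, taken over the 8 flight arrays and over the 15 calf arrays, with the lower of both as the measure. Arrays share groups, so these values only describe likeness. For Id1 the closest were Ppp2ca, the catalytic subunit of protein phosphatase 2A (r = 0.93 in flight, 0.89 in calf), the zinc finger factor Klf4 (0.83 and 0.82) and the fatty acid binding protein Fabp3 (0.80 and 0.80). Klf4 also came close in size, at -0.91 in flight, -0.57 in suspension and 0.56 on reloading, whereas Ppp2ca differed by -0.14, -0.33 and 0.30. Id3 stood in place 8 for Id1, with r = 0.93 and 0.77. For Id3 the closest were the ubiquitin conjugating enzyme Ube2a (0.83 and 0.81) and the Z-disc proteins Myoz2 (0.89 and 0.78) and Actn2 (0.83 and 0.77), and Id1 came in place 4. For Id2 the closest were Recql5, Atp5g2 and Pold4, with a lower r between 0.61 and 0.64, and Id1 stood only in place 2349 with a lower r of 0.04.

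**Figure D4:**
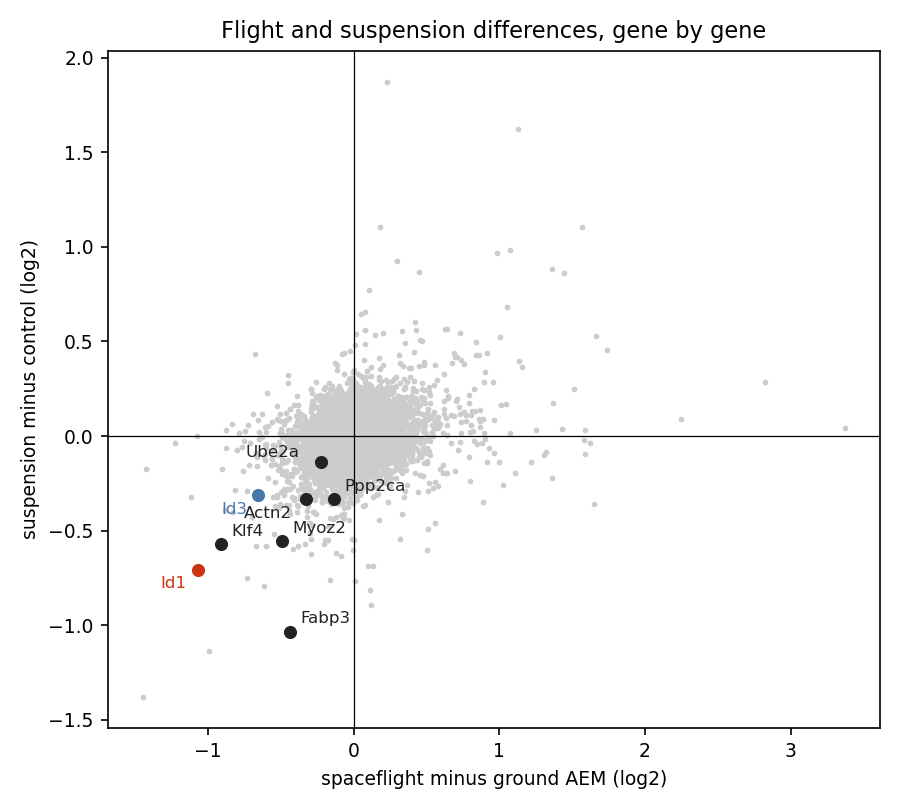
Log2 difference in spaceflight against ground AEM (x axis) and in suspension against control (y axis) for all 9133 tested genes (grey), with Id1, Id3 and the genes closest to them in pattern named. Id1 (-1.07 and -0.71) and Klf4 (-0.91 and -0.57) lie near each other at the lower left, and Fabp3 (-0.44 and -1.03) lies further down.

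Markers of other cell types were read in the same comparisons. Their counts in flight are to be read beside the 5.64% of all tested genes called there. All 17 endothelial markers were tested. In flight 3 fell and 0 rose, Aplnr (-1.43), Sox18 (-1.12) and Kdr (-0.32), while Pecam1 (0.07, limma adjusted p = 0.682) and Cdh5 (0.11, adjusted p = 0.562), which define the cell type, did not pass. A second, dimmer Cdh5 probe set differed by -0.30. The list's median was 0.03. The second probe set of Aplnr differed by only -0.26, and the Kdr call ended in 6 of 8 fits, without ground AEM replicate 2, 3 or 4 or spaceflight replicate 8, 9 or 10. Aplnr and Sox18 were known to be low in flight when the list was written. The mean log2 signal over the 17 markers ran from 7.33 to 7.47 in ground AEM and from 7.23 to 7.31 in spaceflight, and their summed linear signal from 3201 to 3529 and from 2958 to 3227. Without Aplnr and Sox18 the mean over the other 15 ran from 7.34 to 7.49 and from 7.38 to 7.42, with all 4 spaceflight arrays within the ground range. Their summed signal ran from 2863 to 3205 and from 2804 to 3021, with the lowest spaceflight value below the ground range. Aplnr and Sox18 fell most among the called markers of this contrast, so leaving them out narrows the difference by choice.

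In the calf experiment 0 of 17 endothelial markers passed in any comparison, where 0.318% to 0.58% of all tested genes were called. The list's median was -0.07 in suspension, with 11 of 17 below 0, and -0.05 on reloading, with 10 of 17 below 0. In reloaded against control it was -0.12, with 15 of 17 below 0. The medians of all tested genes were 0.003, -0.02 and -0.02 in the same order. The mean over the 17 markers ran from 7.28 to 7.39 in control, 7.23 to 7.29 in suspension and 7.17 to 7.32 in reloaded muscle. The endothelial part in the Id differences was not tested. Of 5 fibroblast markers, Col1a1 (-0.99) and Col3a1 (-0.61) fell in flight. In suspension 0 of the 5 passed, with a median of -0.35 and 5 of 5 below 0, and on reloading 0 passed, with a median of 0.31 and none below 0. The fibroblast markers' mean log2 signal ran from 8.92 to 9.58 in ground AEM and 8.74 to 9.14 in spaceflight, and from 9.15 to 9.59 in control, 8.53 to 9.37 in suspension and 9.04 to 9.47 in reloaded muscle. The fibroblast part in the Id differences was not tested. All 4 tested adipocyte markers rose in flight (median 1.25), and 0 passed in suspension (median 0.60) or on reloading (-0.35), with signs opposite to Id1 in each comparison. Of 3 Schwann cell markers 0 passed in flight, and Mbp rose in suspension (1.87), a call that ended without suspension replicates 8 and 9. Other probe sets of Mbp differed by 0.07 to 2.10 in suspension. The part of these cells was not tested either. Of 8 pericyte and smooth muscle markers, 4 satellite cell markers and 6 macrophage markers, 0 passed in any comparison. In the satellite cell list Pax7 lay below the filter and Megf10 had no probe set with a single symbol, so neither was tested. The call of Col1a1 ended in 5 of 8 fits with an array left out (without ground AEM replicate 3 or 4 or spaceflight replicate 8, 10 or 11) and that of Col3a1 in 6 (also without ground AEM replicate 2). Both calls also ended with trend and robust estimation (adjusted p = 0.140 and 0.100) and in 1 limma fit of all 23 arrays (0.151 and 0.0730), and that of Col3a1 with the mean of its probe sets (-0.42, adjusted p = 0.162).

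With each group's mean removed, 3 relations were computed over 23 arrays, with values permuted only within groups. Id1 and the endothelial mean had Pearson's r = 0.54 (permutation p = 0.0134, adjusted p = 0.0402) and Spearman's rho = 0.54 (permutation p = 0.0156, adjusted p = 0.0468), and lay on the same side of their group means on 16 of 23 arrays. The relation rested on a few calf arrays. It was 0.70 over the 15 calf arrays and 0.10 over the 8 flight arrays, and without reloaded replicates 15 and 16, which are farthest out in Id1, r was 0.37 (permutation p = 0.0924). Without Aplnr and Sox18 in the mean, r over the 23 arrays was 0.55. Array range moved with both in part of the calf arrays. Control replicate 22 and suspension replicate 25, the arrays of widest range in their groups (2.44 and 2.46), deviated by 0.27 and 0.37 in Id1 and by 0.04 and 0.03 in the endothelial mean. Reloaded replicate 16 and control replicate 1, those of narrowest range (2.32 and 2.35), deviated by -0.42 and -0.13 in Id1 and by -0.05 in the endothelial mean on both. Reloaded replicate 33, of widest range in its group (2.44), deviated by only -0.02 in Id1, and suspension replicate 8, of narrowest range (2.21), by -0.08. The part of array range in the relation was not tested. Id1 and Id3 had r = 0.47 (permutation p = 0.0515, adjusted p = 0.0772) and rho = 0.37 (permutation p = 0.122, adjusted p = 0.122), with 0.42 over the flight and 0.52 over the calf arrays, and 0.44 without the same 2 arrays. Id3 and the endothelial mean had r = 0.34 (permutation p = 0.123, adjusted p = 0.123) and rho = 0.35 (permutation p = 0.113, adjusted p = 0.122), with 0.21 over the flight and 0.41 over the calf arrays, and 0.21 without suspension replicate 30 and spaceflight replicate 10. Neither relation of Id3 passed.

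**Figure D5:**
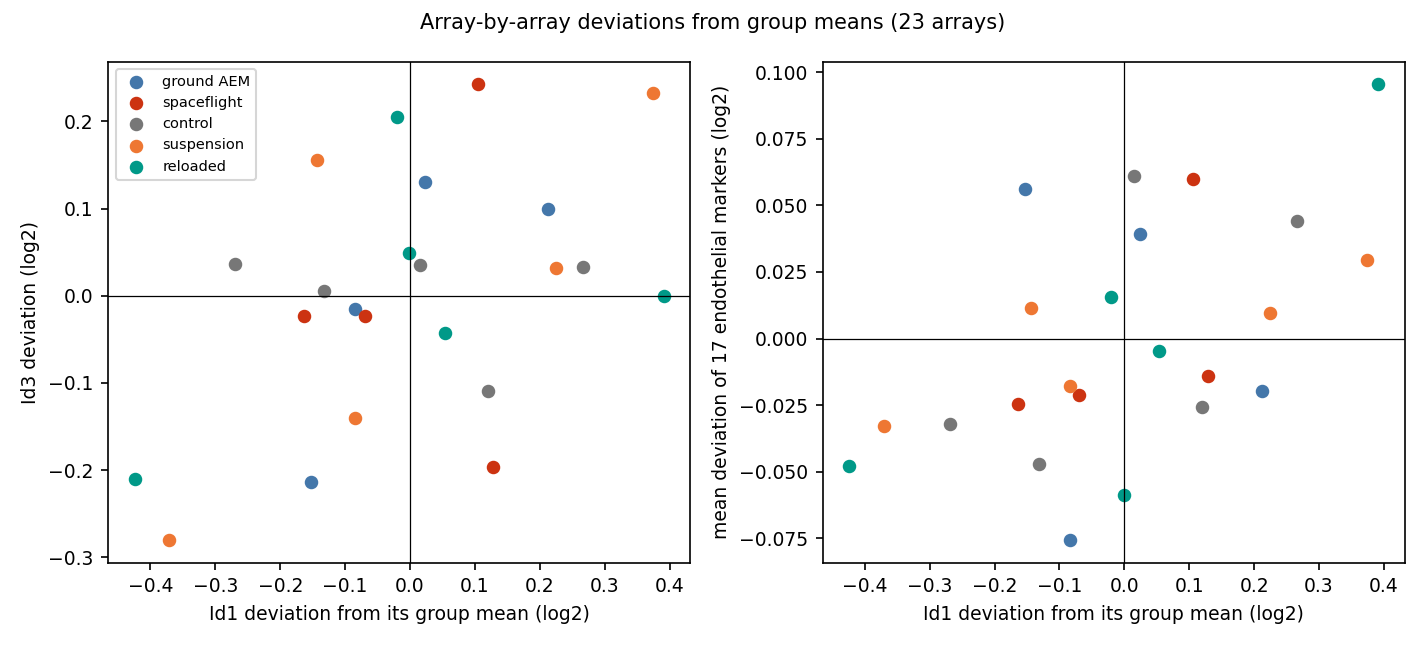
Deviation of Id1 from its group mean (x axis, log2) against that of Id3 (left) and that of the mean of 17 endothelial markers (right) on the 23 arrays, coloured by group. The right panel has r = 0.54 and is drawn out by reloaded replicates 15 and 16 at 0.39 and -0.42 in Id1.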

How the data were processed

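The deposited table holds log2 signals per probe set, from 2.49 to 14.2. Per the submitters' processing notes the authors used RMA and MAS5. Not given in the sources used here: versions, which method made the table, joint normalization, scan dates and build. Batches were therefore not tested, and nothing was renormalized. Replicates may share an animal as far as the labels go, and p-values then cover only the spread among samples, which may be technical.

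Symbols came from the platform annotation, which can be old. For 12393 genes, the probe set with the highest mean stood for the gene, and 9133 genes with a log2 value above 5.83 (the 40th percentile) on at least 4 arrays were tested. limma 3.58.1 (R 4.3.3, lmFit and eBayes, two-sided) was fitted to the 8 flight arrays and to the 15 calf arrays, with Benjamini-Hochberg adjustment over all tested genes and calls under 0.05. The fits were tested on simulated data. Correlations used 100000 permutations within groups.

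The members, lists and tests were chosen with earlier results of these data known. Named are the members, 12 fixed genes, up to 4 called genes per list and comparison, and the 3 genes most like each member. Alternatives are given in the closing section.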

Additional observations from a re-analysis of the deposited data

Results flagged for a closer look

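Control replicate 19 stood apart in Id3. It read 7.36 where the other 4 control arrays lay between 7.47 and 7.50, and its gap to the nearest of them took up 0.787 of the group's range, above the critical value of 0.71 for 5 samples. It was 1 of 25 groups of member probe sets looked at, and chance marks about 1 in 20. Without it, Id3 in suspension against control had the same sign and stayed short of the threshold.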

How the results depend on the processing

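The flight differences of Id1 and Id3 kept their sign under all 9 alternatives and with any 1 array left out (Id1 -1.12 to -1.001, Id3 -0.74 to -0.59). Id1 in suspension against control kept its sign, but its call ended with the mean of probe sets (-0.71, adjusted p = 0.0501), with array weights (-0.59, adjusted p = 0.0764) and without suspension arrays 8 and 9 (-0.63); with 1 array left out it ranged from -0.80 to -0.61. Id1 on reloading passed in 1 fit of all 23 arrays (0.54, adjusted p = 0.0478), and ranged from 0.45 to 0.65 with 1 array left out. Id3 passed in no calf fit. The causes were not tested. The list counts without suspension 8 and 9, and the settings tried on called list genes, were chosen after seeing the data. Counts of called genes over the alternatives and left-out arrays ran from 283 to 885 around 515 in flight, from 7 to 50 around 34 in suspension, from 37 to 86 around 53 in reloaded against suspension, and from 20 to 88 around 29 in reloaded against control. In flight 885 were called with each probe set on its own, and 283, 328, 326 and 303 without ground AEM 3 or 4 or spaceflight 8 or 9. In suspension 17 were called with the mean of probe sets, 7 without suspension 8 and 9, and 16, 15, 21, 19 and 21 without control 19 or 22 or suspension 30, 8 or 9. On reloading 86 were called with each probe set on its own, and against control 48 that way, 88 with array weights and 53 with only these groups fitted. No paired analysis was possible because the groups compared within an experiment share no replicate numbers. Signal near background limits Id2, and the number of arrays limits precision, with a median SE of 0.09.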
